A study of Mus musculus with 27 samples.

Results

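The mouse mitochondrial genome encodes 13 mRNAs, 2 rRNAs and 22 tRNAs, and the levels of these 37 RNAs were followed through 3 subcellular fractions of embryonic stem cells. They were taken as every row of the deposited gene table whose symbol begins with mt-, which gave 37 of 53379 genes. The cells were E14, a mouse embryonic stem cell line grown on gelatin with LIF, the cytokine that holds such cells undifferentiated. One set received siRNA against PTBP1 (siPTBP1), a second received siRNAs against PTBP1 and PTBP2 together (the double knockdown), and the control set received siRNA against eGFP (siGFP). All were transfected, transfected again after 24 h, and fractionated after 48 h in all. Each treatment was split into chromatin-associated (CH), nucleoplasmic (NP) and cytoplasmic (CY) RNA, from which polyadenylated RNA was selected. This gave 9 groups of 3 libraries, which the series calls biological replicates. PTBP1 is an RNA-binding protein that controls splicing at pyrimidine-rich tracts, and PTBP2 is its neuronal paralog. The libraries came from bulk cultures, so fewer cells of a type and less RNA per cell cannot be told apart.

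Both strands of the circular mitochondrial DNA are transcribed inside the organelle into long precursor RNAs that run through many genes. Most mRNAs and rRNAs are flanked by tRNAs, and excision of the tRNAs releases them. A mitochondrial poly(A) polymerase then adds short tails to the mRNAs, which completes the stop codon of those whose gene ends within it. The mRNAs specify membrane subunits of the respiratory chain and ATP synthase, the rRNAs form the mitochondrial ribosome, and the tRNAs decode the mRNAs inside the same organelle. In human cells ND6, the mRNA from the opposite strand, is known to carry little or no poly(A) tail.

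Ptbp1, the target of both knockdowns, had between 79.4 and 339 TPM (a level scaled to transcript length and to the same total in each library) in their 18 libraries, against 287 to 659 TPM in the 9 siGFP libraries. Within each fraction, every knockdown library lay below every siGFP library, and the difference was called in NP and CY but not in CH (limma, adjusted p = 0.16 for siPTBP1 and 0.367 for the double knockdown). Ptbp2 averaged lower in the double knockdown than in siGFP in each fraction, at 54.9 ± 27.3 against 67.5 ± 38.7 TPM in CH. In NP it had 9.12 ± 4.85 against 15.8 ± 6.97 TPM, and in CY 5.43 ± 3.45 against 11.3 ± 6.76 TPM (SD, n = 3 each). The groups overlapped in each fraction, and no difference was called (limma). All 8 stem cell markers examined, Pou5f1 and Nanog among them, had at least 1 TPM in every library. Summed TPM of 6 nuclear noncoding RNAs, Malat1 and Neat1 among them, was 1306 to 3254 in CH, 148 to 369 in NP and 36.9 to 69.0 in CY. The 6 fibroblast markers summed to 34.6 to 140 TPM in CH, 20.1 to 50.8 in NP and 1.32 to 3.69 in CY, with Col1a1, Col1a2 and Col3a1 above 1 TPM in every CH and NP library and Postn, Twist1 and Prrx1 not. None of the 6 was at 0 in all libraries of a fraction, and their part in the mitochondrial values was not tested. Of 5 primitive endoderm markers 0 had 1 TPM or more throughout any fraction, and their sum was 1.69 to 7.28 TPM. Of 4 trophoblast markers Tfap2c did so in every fraction and Krt7 in CH, and of 4 neuronal markers Tubb3 did so in every fraction, Map2 in NP and CH and Rbfox3 in CH. TPM keeps no read number, so the depth behind a value is unknown.

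The annotated 3′ ends below are shown because poly(A) selection is the step through which these RNAs entered the libraries. Each is the last 30 bases of the annotated transcript on chromosome M (GRCm38, GENCODE M21), written 5′ to 3′ as DNA, with the bases of the stop codon that the genome itself supplies in capitals. mt-Co3 (chrM:8607-9390), mt-Nd4 (chrM:10167-11544) and mt-Cytb (chrM:14145-15288), all on the plus strand, supply a single T. mt-Co1 (chrM:5328-6872, plus strand) and mt-Nd6 (chrM:13552-14070, minus strand) supply a whole codon. Where the RNAs themselves end, and a tail would begin, was not measured.
mt-Co3: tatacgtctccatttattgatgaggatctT
mt-Nd4: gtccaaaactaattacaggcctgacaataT
mt-Cytb: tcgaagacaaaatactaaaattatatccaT
mt-Co1: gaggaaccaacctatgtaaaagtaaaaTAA
mt-Nd6: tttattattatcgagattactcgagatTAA

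A second set of sequences bears on how the mRNA levels can be read. In 11 annotated genes outside chromosome M the transcript aligned to a mitochondrial one over at least 100 bases at 95% identity or more, and all 11 were rows of the same table. They are nuclear copies of mitochondrial DNA, and 7 lie in a run on chromosome 1 between 24611535 and 24616197, minus strand. Gm28661 matched mt-Co2 over 681 bases, Gm10925 matched mt-Atp6 over 678 bases and Gm28437 matched mt-Co3 over 783 bases, each with 100% identity. Gm29216 matched the 3′ part of mt-Co1 over 483 bases with a single mismatch, and Gm28438 matched mt-Nd3 over 345 bases with a single mismatch. These mismatches are the bases in capitals below, A1066T in mt-Co1 and T3C in mt-Nd3, counted from 1 at the 5′ end of the mitochondrial transcript. The mt-Co1 stretch covers its positions 1051 to 1081, and the Gm29216 stretch covers positions 1 to 28 of the copy, whose first 9 bases lie outside the match.
mt-Co1: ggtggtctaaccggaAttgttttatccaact
Gm29216: ggattggcaggaTttgttttatccaact
mt-Nd3: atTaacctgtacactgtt
Gm28438: atCaacctgtacactgtt

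Reads from these stretches cannot be placed with certainty, and the table divided them unevenly. The division is given as the mitochondrial row's share of TPM times transcript length, which stands for reads, over both members of a pair. In the nucleoplasm mt-Co1 held 85.2% to 89.7% of the pair of mt-Co1 and Gm29216. mt-Co3 held 78.4% to 95.9% of its pair there, whereas mt-Atp6 held 35.6% to 50.8% and mt-Co2 24.7% to 41.5%. mt-Nd3, a complex I subunit gene, held 8.36% to 18.1%. The share on the mitochondrial row was thus highest where the copy covers only part of the gene and for mt-Co3, and lowest for mt-Nd3.

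The division was less regular in the fractions with less mitochondrial RNA. mt-Co2 was listed at 0.17 TPM in siPTBP1 CY replicate 1, where Gm28661 had 93.1 TPM. mt-Atp6 was listed at 0.21 TPM in siPTBP1 CY replicate 2, where Gm10925 had 118.5 TPM. mt-Nd3 in CY had 0, 0 and 0 TPM in siPTBP1, 0, 34.5 and 20.0 TPM in the double knockdown, and 0, 0 and 0 TPM in siGFP. Its copy Gm28438 had 20.2, 34.3 and 57.9 TPM in siPTBP1, 24.7, 0.50 and 32.7 TPM in the double knockdown, and 26.4, 22.5 and 50.1 TPM in siGFP. mt-Nd3 was therefore listed at 0 in 7 of 9 CY libraries while a near-identical sequence had TPM in all 9, and the sum of both, with the copy weighted by its length, is also given for it. Wherever copies are added to a gene they are weighted in this way. Without weights, the 11 copies made up 21.2% to 32.0% of the summed TPM of mitochondrial genes and copies in CH, 23.2% to 30.1% in NP and 21.6% to 35.9% in CY.

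**Figure D1:**
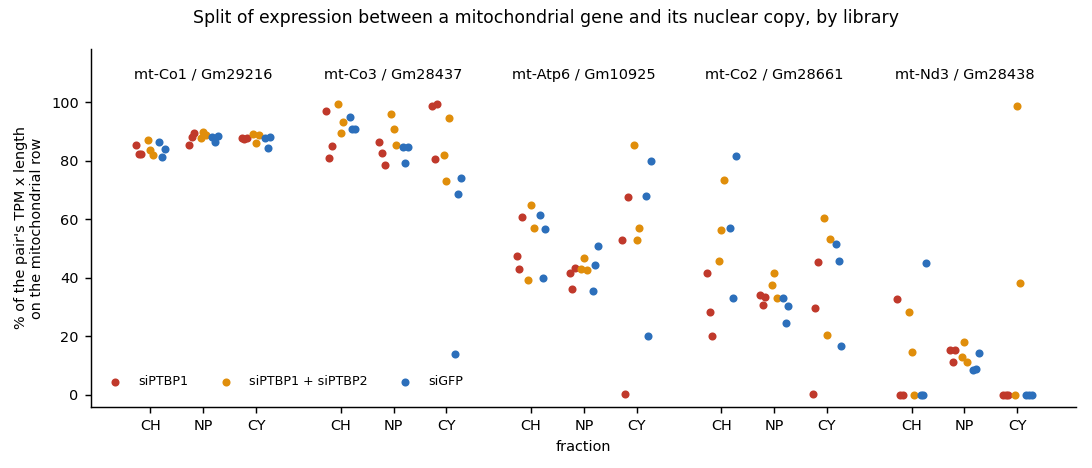
Percent of TPM times transcript length, summed over a mitochondrial gene and its nuclear copy, that the table placed on the mitochondrial row (vertical axis), for 5 pairs in CH, NP and CY; each point is 1 of 27 libraries, coloured by treatment. mt-Co1 stayed between 81.1% and 89.7% in all libraries, whereas mt-Nd3 ran between 0% and 98.6%.

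Among the mRNAs, mt-Co1, the catalytic core of cytochrome c oxidase (complex IV), was the highest in all 3 fractions once copies were added. In CH mt-Co1 had 3623, 3454 and 3014 TPM in siPTBP1, 1132, 3682 and 1597 TPM in the double knockdown, and 1209.6, 4683 and 1844 TPM in siGFP. Its NP level was 17557, 49334 and 40385 TPM in siPTBP1, 22505, 53543 and 41408 TPM in the double knockdown, and 19854, 39343 and 28527 TPM in siGFP. CY gave 103, 161 and 203 TPM in siPTBP1, 85.9, 186 and 171 TPM in the double knockdown, and 119.8, 163 and 244 TPM in siGFP. Every NP library was above every CH library, and every CH library above every CY library. By rank among all genes of a library, mt-Co1 stood between 8 and 58 in CH, between 1 and 6 in NP and between 558 and 1415 in CY. Between 8 and 10 of the 20 highest genes of an NP library were mitochondrial mRNAs, against 0 to 3 in a CH library and 0 in a CY library.

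mt-Cytb, the core of complex III, has no annotated copy and followed the same order. It had 1528, 731 and 907 TPM in siPTBP1, 389.9, 688 and 401 TPM in the double knockdown, and 420.1, 929.7 and 371 TPM in siGFP in the CH fraction. In NP it had 8579, 14912 and 17548 TPM in siPTBP1, 14448, 15323 and 17425 TPM in the double knockdown, and 9275, 10387 and 11669 TPM in siGFP. In CY the values were 25.3, 39.2 and 69.7 TPM in siPTBP1, 23.2, 41.2 and 61.5 TPM in the double knockdown, and 30.4, 32.2 and 71.6 TPM in siGFP. In NP all 3 double knockdown libraries lay above all 3 siGFP libraries, although the difference, 0.59 on the log2 scale, was not called (limma, adjusted p = 1, where 0.155% of all genes were called in that contrast). In CH all 3 siPTBP1 libraries lay above all 3 double knockdown libraries, and that difference, given with the knockdowns, was not called either, where 0.107% of all genes were. The other pairs of treatments overlapped in each fraction, and the share of all genes whose groups separate as these did was not counted.

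At the low end stood mt-Nd5 and mt-Nd6, membrane subunits of complex I encoded next to each other on opposite strands. mt-Nd6 had 152, 115.82 and 54.2 TPM in siPTBP1, 59.3, 84.2 and 44.2 TPM in the double knockdown, and 50.7, 87.6 and 30.6 TPM in siGFP in CH. The NP values were 389, 1022 and 988 TPM in siPTBP1, 415, 1231 and 1017 TPM in the double knockdown, and 240.2, 589.9 and 601 TPM in siGFP. In CY mt-Nd6 had 1.99, 1.16 and 3.23 TPM in siPTBP1, 1.02, 2.58 and 1.66 TPM in the double knockdown, and 1.15, 1.83 and 2.22 TPM in siGFP. It was the lowest of the 13 mRNAs in each fraction with copies added, and mt-Nd5 the next lowest. The 2 transcripts share 14 bases (chrM:13552-13565). The kit keeps strand, but no source used here states the strand setting of the counting, so reads of both strands across mt-Nd6 cannot be told apart with certainty.

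The order of the other mRNAs was less sharp. Over 9 NP libraries, with copies added, mt-Co1 averaged 39330 ± 14500 TPM, mt-Atp8 37520 ± 10540, mt-Atp6 31390 ± 7631 and mt-Co2 28150 ± 6422 (SD, n = 9). The gap between neighbours in this order was smaller than the larger of their SDs. These SDs also hold differences between libraries in the summed mRNA share, 9.19% to 22.4% of TPM in NP, so they do not compare genes within a library. Within each NP library mt-Atp8 was above mt-Atp6, at a ratio of 1.06 to 1.26. mt-Atp8 and mt-Atp6 encode membrane subunits of ATP synthase. A gap larger than the SD of both neighbours separated mt-Nd1 from mt-Nd4l, mt-Nd4l from mt-Nd4, mt-Nd4 from mt-Nd2, mt-Nd3 from mt-Nd5 and mt-Nd5 from mt-Nd6 in NP. No such gap occurred in CH, where mt-Co1 averaged 3237 ± 1572 TPM and mt-Nd6 75.4 ± 38.8 TPM (SD, n = 9).

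**Figure D2:**
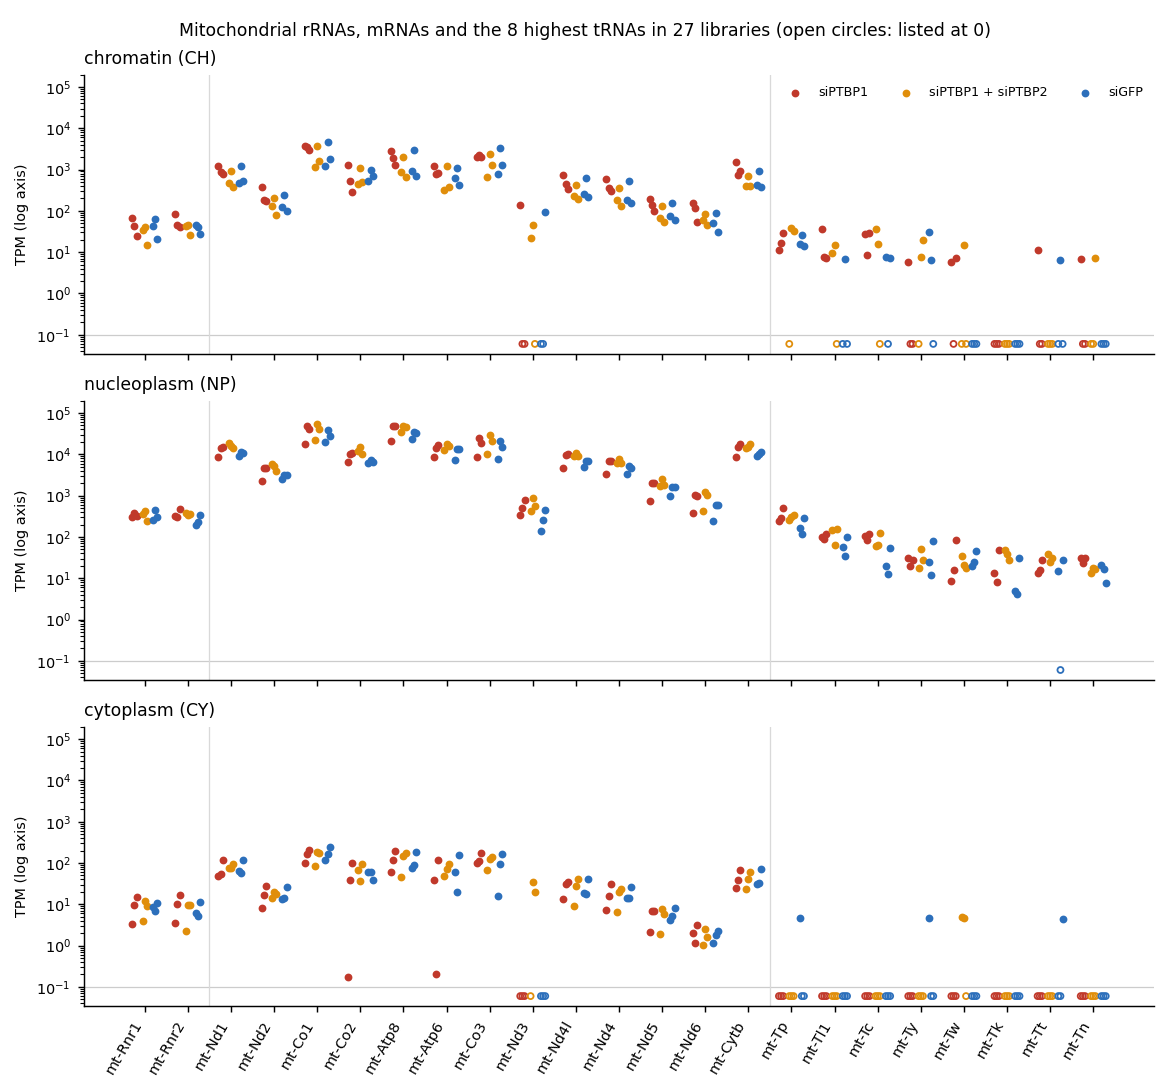
TPM (log axis) of 2 rRNAs, 13 mRNAs and the 8 highest tRNAs in chromatin, nucleoplasm and cytoplasm, with 1 point per library, 27 in all, coloured by treatment and open circles for values listed at 0. The mRNAs reach 53543 TPM in NP, and the tRNAs are almost all listed at 0 in CY.

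Each fraction was then compared with another in a fit over the 20611 genes with at least 1 TPM in at least 3 libraries. In nucleoplasm against cytoplasm all 13 mRNAs were higher in siPTBP1, in the double knockdown and in siGFP (limma on log2(TPM + 1), Benjamini-Hochberg adjusted p under 0.05). Of all genes tested 13.6%, 15.4% and 12.3% were called higher in those treatments, or 22.2%, 25.7% and 23.5% with replicate number as a block, which left all 13 mRNAs called. Leaving out mt-Nd3, the median log2 difference was 8.11 in siPTBP1, with mt-Co3 lowest at 6.98 and mt-Atp6 highest at 9.45. That mt-Atp6 value includes CY replicate 2, where mt-Atp6 was listed at 0.21 TPM beside 118.5 TPM of its copy Gm10925. With copies added, the highest of the 13 mRNAs in siPTBP1 was 8.36. The median was 8.16 in the double knockdown, where mt-Co3 was lowest at 7.41 and mt-Nd4 highest at 8.74. In siGFP it was 7.64, with mt-Co2 lowest at 6.99 and mt-Atp8 highest at 8.11. The median of all genes tested was 0.07, 0.12 and 0.15 in the same order of treatments. For mt-Cytb the difference was 8.28 ± 0.43 in siPTBP1 (SE), with an adjusted p of 2.92e-11. mt-Nd3 with its copy was 6.71, 6.90 and 6.31 higher. On its own row, its call in the double knockdown was lost without CY replicate 1 (adjusted p = 0.116) and without NP replicate 2 (adjusted p = 0.0717) of that treatment.

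Because TPM sums to a fixed total, a rise of these RNAs in NP lowers every other gene's TPM there. RNAs translated at the endoplasmic reticulum were also higher there. The 12 such genes examined, among them Hspa5 and Calr, summed to 5218 to 9102 TPM in NP against 436 to 1076 TPM in CY. They summed to 3326 to 4975 TPM in CH. In siGFP all 12 were called higher in NP than CY, where 12.3% of all genes were, with a median log2 difference of 3.43 against 0.15 over all genes. All 12 were also called higher in CH than CY, where 57.9% of all genes were, with a median of 2.58 against 0.95 over all genes. Their part in the mitochondrial result was not tested.

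On chromatin against cytoplasm 12 of 13 mRNAs were called higher in each treatment, where 57.8% of all genes tested were called higher in siPTBP1, 60.4% in the double knockdown and 57.9% in siGFP. The share of members is above this background, but most genes moved the same way. Over the mRNAs other than mt-Nd3 the median log2 difference was 4.53, 3.55 and 3.68, against 0.97, 1.04 and 0.95 over all genes. The call of mt-Atp6 in the double knockdown was lost without CY replicate 1 (adjusted p = 0.0579) and without CH replicate 2 (adjusted p = 0.0879) of that treatment. The mRNA not called was mt-Nd3. With its copy added it was called in all treatments, at 3.33, 2.30 and 2.65.

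For chromatin against nucleoplasm all 13 mRNAs were called lower in each treatment, against 5.65% of all genes in siPTBP1, 6.3% in the double knockdown and 5.48% in siGFP. The median log2 difference without mt-Nd3 was -3.73, -4.88 and -4.01, while that of all genes was 0.81, 0.83 and 0.68. The mt-Nd3 call was lost without double knockdown CH replicate 3 (adjusted p = 0.0654), and in siGFP without CH replicate 1 (adjusted p = 0.0504) or CH replicate 2 (adjusted p = 0.0592). Among the other 12, mt-Nd6 differed least in each treatment, by -2.88, -3.71 and -3.07, and mt-Atp8 differed most, by -4.28, -5.34 and -4.61. Under quantile normalization mt-Atp6 lost its call in siPTBP1 (adjusted p = 0.0697) and mt-Co2 in siGFP (adjusted p = 0.0591). Scaling each library by median ratios in place of its TPM total moved all-gene medians of CH against CY to 0.37, 0.36 and 0.34. With that scaling mt-Co2 and mt-Atp6 lost their CH against CY call in the double knockdown, at 2.12 (adjusted p = 0.0700) and 1.74 (adjusted p = 0.165), and mt-Atp6 lost it in siGFP, at 2.44 (adjusted p = 0.0573).

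**Figure D3:**
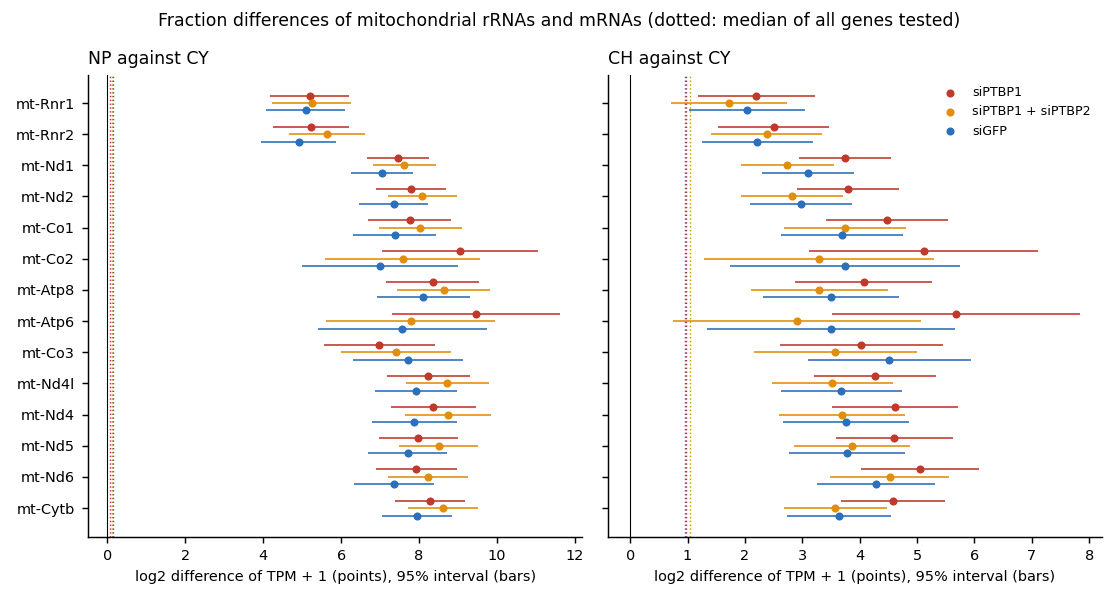
log2 difference of TPM + 1 (points) with 95% interval (bars) for 2 rRNAs and 12 mRNAs, in NP against CY (left) and CH against CY (right), with 1 colour per treatment and dotted lines at the median of all 20611 genes. Every mRNA lies between 6.98 and 9.45 in NP against CY, and mt-Rnr1 and mt-Rnr2 lie between 4.90 and 5.64. The 9.45 is mt-Atp6 in siPTBP1 without its copy, and with copies added the highest mRNA in siPTBP1 was at 8.36.

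The rRNAs, mt-Rnr1 of the small ribosomal subunit (12S) and mt-Rnr2 of the large one (16S), were far lower than most mRNAs in these poly(A)-selected libraries. mt-Rnr1 (chrM:70-1024, plus strand) had 65.4, 43.8 and 23.9 TPM in siPTBP1, 33.7, 41.7 and 15.3 TPM in the double knockdown, and 42.2, 65.0 and 20.4 TPM in siGFP in CH. In NP it had 305, 378 and 321 TPM in siPTBP1, 353, 425 and 243 TPM in the double knockdown, and 261, 443 and 300.1 TPM in siGFP. Its CY values were 3.35, 9.89 and 15.1 TPM in siPTBP1, 4.02, 12.1 and 9.29 TPM in the double knockdown, and 8.72, 6.94 and 10.5 TPM in siGFP. The 3 fractions did not overlap, and within a fraction the treatments did.

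mt-Rnr2 (chrM:1094-2675, plus strand) had 84.8, 45.0 and 40.1 TPM in siPTBP1, 43.0, 44.9 and 25.9 TPM in the double knockdown, and 46.7, 40.9 and 27.5 TPM in siGFP on chromatin. Nucleoplasm gave 321, 303 and 479.6 TPM in siPTBP1, 387, 341 and 358 TPM in the double knockdown, and 192, 225 and 347 TPM in siGFP. Cytoplasm gave 3.53, 9.95 and 17.1 TPM in siPTBP1, 2.29, 9.90 and 9.81 TPM in the double knockdown, and 6.20, 5.29 and 11.5 TPM in siGFP. Again NP was highest and CY lowest in every library.

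Both rRNAs were called in all 9 fraction contrasts. Of all genes 13.6%, 15.4% and 12.3% were called higher in NP against CY in siPTBP1, the double knockdown and siGFP. In CH against CY 57.8%, 60.4% and 57.9% were called higher, so a call there says little. In CH against NP 5.65%, 6.3% and 5.48% were called lower. In NP against CY mt-Rnr1 was higher by 5.19, 5.25 and 5.09 on the log2 scale in siPTBP1, the double knockdown and siGFP, and mt-Rnr2 by 5.23, 5.64 and 4.90. In CH against CY the differences were 2.20, 1.72 and 2.04 for mt-Rnr1 and 2.50, 2.38 and 2.22 for mt-Rnr2. The medians over all genes there were 0.97, 1.04 and 0.95. The mt-Rnr1 call in CH against CY was lost under quantile normalization in all 3 treatments, with an adjusted p of 0.0667 in siPTBP1 at a difference of 1.04, 0.504 in the double knockdown at 0.38 and 0.129 in siGFP at 0.86. In the double knockdown median-ratio scaling ended it too, at 0.64 (adjusted p = 0.201). Without the 9 replicate 1 libraries siPTBP1 gave 1.33 (adjusted p = 0.0516), and 1.19 was the value for the double knockdown (adjusted p = 0.0787). In CH against NP the differences were -2.99, -3.53 and -3.05 for mt-Rnr1 and -2.73, -3.26 and -2.69 for mt-Rnr2.

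The summed rRNA TPM, set against the summed mRNA TPM, differed between fractions. It was 0.635% to 1.59% in CH (median 0.738%), 0.318% to 0.682% in NP (median 0.430%) and 1.40% to 3.31% in CY (median 2.15%), with 9 libraries each. Every CY value lay above every NP value. These shares are given as a description, and no test was made of them.

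Ratios of neighbouring RNAs were tested next, since a ratio within a library does not depend on the library's scaling. Such a ratio does depend on how length was corrected in each library, and that part was not tested. mt-Atp8 has 204 bases and mt-Nd4l 297, against 681 in mt-Atp6 and 1378 in mt-Nd4. The 4 ratios were compared between 3 pairs of fractions, 12 tests in all, by an exact two-sided permutation test of the fraction labels within treatments (8000 arrangements, smallest possible p 0.00025), with p-values adjusted over the 12. The ratio of mt-Nd6 to mt-Nd5 was higher in CH than in NP by 0.75 on the log2 scale (p = 0.00025, exact, adjusted p = 0.003), in 9 of 9 pairs of libraries with the same treatment and number. It was 0.501 to 0.870 in CH (median 0.673), 0.239 to 0.562 in NP (median 0.485) and 0.169 to 0.952 in CY (median 0.339). In CH against CY the difference was 0.90 (exact adjusted p = 0.0127), higher in 8 of 9 pairs. NP against CY gave 0.15 (exact adjusted p = 0.762), with 5 of 9 pairs higher. mt-Nd6 in CY was near 1 TPM in several libraries, so the CY ratio is the least sure. With a pseudocount of 1 the CH against CY difference was 0.53 and was not called (exact adjusted p = 0.06). Leaving out all libraries of 1 replicate number leaves 216 arrangements and a smallest possible p of 0.00926. It gave an exact adjusted p above 0.05 in 2 of 3 cases for CH against NP and in all 3 for CH against CY. After adjustment over the 12 tests, even that smallest p passes only if several tests reach it. A call lost in this way, here or for the ratios below, therefore says little.

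mt-Atp8 and mt-Atp6 lie on 1 mRNA in mouse mitochondria and share the 43 bases below, in capitals as the overlap (positions 162 to 204 of mt-Atp8). mt-Nd4l and mt-Nd4, complex I subunits on another shared mRNA, overlap by 7 bases (positions 291 to 297 of mt-Nd4l).
mt-Atp8 and mt-Atp6: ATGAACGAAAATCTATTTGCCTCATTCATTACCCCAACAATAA
mt-Nd4l and mt-Nd4: ATGCTAA

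The ratio of mt-Nd4l to mt-Nd4 kept to a narrow range, 1.14 to 1.47 in CH, 1.37 to 1.49 in NP and 1.15 to 1.97 in CY. It was lower in CH than in NP, with a log2 difference of -0.17 (exact adjusted p = 0.0127), lower in 9 of 9 pairs, and the call was lost without replicate 1 (exact adjusted p = 0.111) and without replicate 3 (exact adjusted p = 0.0741). In CH against CY it differed by -0.23 (exact adjusted p = 0.086, and 0.0117 when replicate numbers are used as pairs). NP against CY differed by -0.07 (exact adjusted p = 0.729).

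For mt-Atp8 to mt-Atp6 the copy matters. With Gm10925 added to mt-Atp6 the ratio was 0.903 to 1.09 in CH, 1.06 to 1.26 in NP and 0.821 to 1.13 in CY. On that basis it was lower in CH than in NP, with a log2 difference of -0.23 (exact adjusted p = 0.002), and higher in NP than in CY by 0.32 (exact adjusted p = 0.002), while CH against CY differed by 0.10 (exact adjusted p = 0.204). The mitochondrial rows alone gave -0.50 (exact adjusted p = 0.0127) for CH against NP, a call lost without replicate 1 (exact adjusted p = 0.0833) and without replicate 3 (exact adjusted p = 0.159). They gave -0.20 (exact adjusted p = 0.994) for NP against CY, the opposite sign. The ratio on those rows reached 551 in siPTBP1 CY replicate 2, the library with 0.21 TPM of mt-Atp6.

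The ratio of the rRNAs, mt-Rnr2 to mt-Rnr1, was 0.629 to 1.70 in CH, 0.508 to 1.496 in NP and 0.570 to 1.13 in CY. Neither CH against CY, at 0.42 (exact adjusted p = 0.0786), nor CH against NP, at 0.31 (exact adjusted p = 0.262), passed. With the replicate numbers as pairs both did, at exact adjusted p of 0.0234 and 0.0117, and CH was above NP in 9 of 9 pairs. NP against CY differed by 0.11 (exact adjusted p = 0.762).

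**Figure D4:**
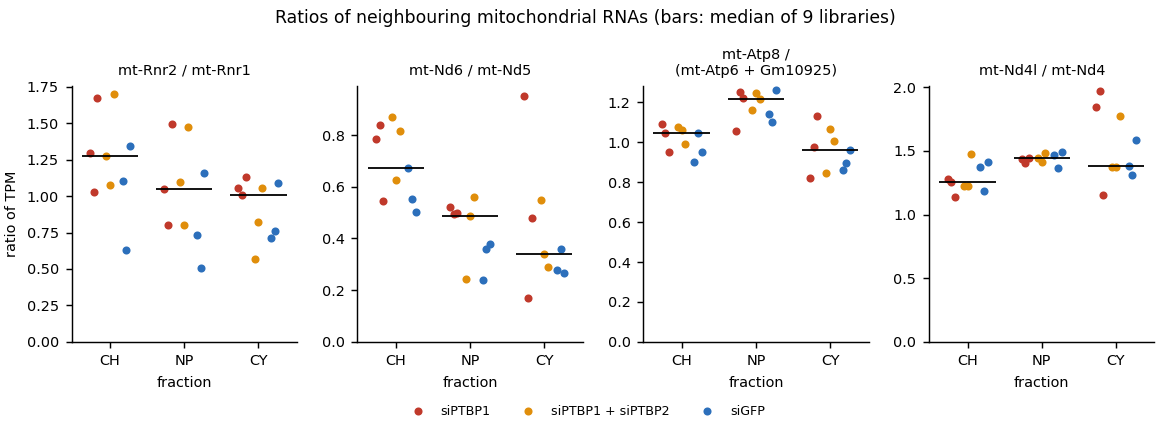
Ratio of TPM (vertical axis) for 4 pairs of neighbouring mitochondrial RNAs in CH, NP and CY; points are libraries coloured by treatment and bars the median of 9 libraries. The mt-Nd6 to mt-Nd5 panel has its highest median, 0.673, in CH, and the mt-Atp8 panel, with the copy Gm10925 added to mt-Atp6, has its highest, 1.22, in NP.

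The tRNAs are 59 to 75 bases long, shorter than the fragments such libraries usually hold, so their TPM depends strongly on how length was corrected. The 3 with the highest mean follow, with 2 that were listed at 0 in all 27 libraries. mt-Tp (proline, chrM:15356-15422) and mt-Tc (cysteine, chrM:5192-5257) lie on the minus strand. mt-Tl1 (a leucine tRNA, chrM:2676-2750) lies directly after mt-Rnr2 on the plus strand, and mt-Th (histidine, chrM:11546-11612) and mt-Ts2 (a serine tRNA, chrM:11613-11671) lie side by side on the plus strand. No base is in capitals, since whole tRNAs are compared.
mt-Tp: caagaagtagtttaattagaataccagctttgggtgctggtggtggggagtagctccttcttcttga
mt-Tl1: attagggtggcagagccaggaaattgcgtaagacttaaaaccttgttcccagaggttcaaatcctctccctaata
mt-Tc: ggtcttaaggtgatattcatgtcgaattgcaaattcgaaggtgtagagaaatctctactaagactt
mt-Th: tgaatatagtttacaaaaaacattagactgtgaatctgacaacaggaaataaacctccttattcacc
mt-Ts2: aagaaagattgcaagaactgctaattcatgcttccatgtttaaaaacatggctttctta

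Of 22 tRNAs, 11 were above 0 in at least 1 CH library, 20 in at least 1 NP library and 5 in at least 1 CY library. By library and tRNA, 39 of 198 values in CH, 122 of 198 in NP and 6 of 198 in CY were above 0. The 5 that did not pass the filter on low values were mt-Tf, mt-Td, mt-Th, mt-Ts2 and mt-Tl2. Detection thus followed the mRNA levels, with NP first and CY last.

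mt-Tp had 11.6, 16.6 and 29.0 TPM in siPTBP1, 0, 37.8 and 33.2 TPM in the double knockdown, and 15.6, 25.9 and 14.2 TPM in siGFP in CH. In NP it had 239, 288 and 494 TPM in siPTBP1, 252, 308 and 338 TPM in the double knockdown, and 163, 115 and 288 TPM in siGFP. It was listed at 0 in 8 of 9 CY libraries and at 4.71 TPM in siGFP CY replicate 1. Every NP library was above every library of the other fractions. mt-Tl1 had 99.6, 87.4 and 119 TPM in siPTBP1, 144, 63.1 and 153 TPM in the double knockdown, and 56.7, 35.3 and 97.7 TPM in siGFP in NP, and was listed at 0 in all 9 CY libraries. mt-Tc likewise was listed at 0 throughout CY and had 107, 83.5 and 117 TPM in siPTBP1, 60.2, 64.6 and 124 TPM in the double knockdown, and 19.9, 12.3 and 53.5 TPM in siGFP in NP. Both knockdowns lay above siGFP for mt-Tc in NP, but neither difference was called (2.05 with an adjusted p of 0.915 for siPTBP1, and 1.68 with an adjusted p of 1 for the double knockdown, both limma, where 0.16% and 0.155% of all genes were called). How many of all genes separate in this way was not counted.

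In NP against CY 12, 11 and 9 of the 17 tRNAs tested were called higher in siPTBP1, the double knockdown and siGFP, where 13.6%, 15.4% and 12.3% of all genes were. The CH against CY contrasts called 3, 4 and 1 of 17 higher, below the share of all genes, which was 57.8%, 60.4% and 57.9%. CH against NP called 15, 11 and 7 of 17 lower, where 5.65%, 6.3% and 5.48% of all genes were. As most tRNAs passed the filter only through NP, these counts carry no weight beyond a description, and no fold is given against CY where values are listed at 0.

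The question of whether knockdown of PTBP1, alone or with PTBP2, altered mitochondrial RNA was put to each fraction. None of 13 mRNAs, 2 rRNAs and 17 tRNAs tested was called in any of the 9 knockdown contrasts. Few genes of any kind were called. The share of all genes in siPTBP1 against siGFP was 0.398% in CH, 0.16% in NP and 0.228% in CY. For the double knockdown against siGFP it was 0.427% in CH, 0.155% in NP and 0.243% in CY, and against siPTBP1 it was 0.107%, 0.00485% and 0%. With replicate number as a block, more genes were called, 2.45%, 1.88% and 1.83% for siPTBP1 and 2.12%, 1.84% and 2.65% for the double knockdown, both against siGFP. Among the members that block called mt-Tk, described below, and no mRNA or rRNA.

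The sizes left undecided by the fit without the replicate block are wide. In that fit the median standard error of an mRNA's log2 difference was 0.51. Standard errors and intervals of the mRNAs with the block are not given here. For siPTBP1 the 95% intervals of mRNAs other than mt-Nd3 ran between -2.27 and 2.63 in CH, -1.99 and 2.42 in NP and -3.87 and 2.40 in CY. A gene's spread is estimated once over all 9 groups. Intervals of mt-Co2 and mt-Atp6 in every fraction thus carry the CY libraries where the copy took nearly all TPM. With copies added, the siPTBP1 differences themselves in CY ran between -0.21 and 0.16. In NP all 13 mRNAs had positive differences in both knockdowns, with medians of 0.32 in siPTBP1 and 0.65 in the double knockdown, where all genes had medians of -0.01 and -0.01. None had an unadjusted p under 0.05 there. Summed mRNA made up 16.1% ± 6.04 of TPM in siPTBP1 NP and 18.7% ± 3.76 in double knockdown NP, against 12.9% ± 3.02 in siGFP NP (SD, n = 3 each), and the groups overlapped. Compared by replicate number, the share in double knockdown NP was above that in siGFP NP in 3 of 3 pairs, by 1.39-fold to 1.55-fold, and the share in siPTBP1 NP in 2 of 3 pairs, between 0.957-fold and 1.41-fold. With 3 pairs an exact two-sided sign-flip test cannot go below p = 0.25. The list of 12 endoplasmic reticulum RNAs also had positive differences for all 12 in NP, with medians of 0.50 in siPTBP1 and 0.45 in the double knockdown, and 0 of 12 were called, or 1 of 12 in each with the replicate block. Their part in the mitochondrial values was not tested.

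On chromatin the medians of the knockdowns had opposite signs. Against siGFP 12 of 13 mRNAs were positive in siPTBP1, with a median of 0.61, and 2 of 13 in the double knockdown, with a median of -0.21, where all genes had 0.09 and 0.07. mt-Cytb was the one mRNA with an unadjusted p under 0.05, at 0.93 in siPTBP1 CH (95% interval 0.03 to 1.84, adjusted p = 0.711). Its 3 siPTBP1 values in CH, given above, overlapped those of siGFP. In CH the summed mRNA share was 1.25% ± 0.301 in siPTBP1, 0.800% ± 0.459 in the double knockdown and 0.959% ± 0.616 in siGFP (SD, n = 3 each). The groups overlapped. By replicate number the double knockdown share was below that of siGFP in 3 of 3 pairs, between 0.796-fold and 0.888-fold, and the siPTBP1 share above it in 2 of 3, between 0.701-fold and 2.83-fold, with the same limit on p. Double knockdown against siPTBP1 in CH gave a median of -0.80 with 11 of 13 negative, and none was called. mt-Cytb alone had an unadjusted p under 0.05 there, at -1.08 (adjusted p = 1). In CY the medians were -0.13 in siPTBP1 and -0.01 in the double knockdown, where all genes had 0.06 and 0. The summed share in CY was 0.0697% ± 0.0347 in siPTBP1, 0.0730% ± 0.0252 in the double knockdown and 0.0712% ± 0.0329 in siGFP (SD, n = 3 each).

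**Figure D5:**
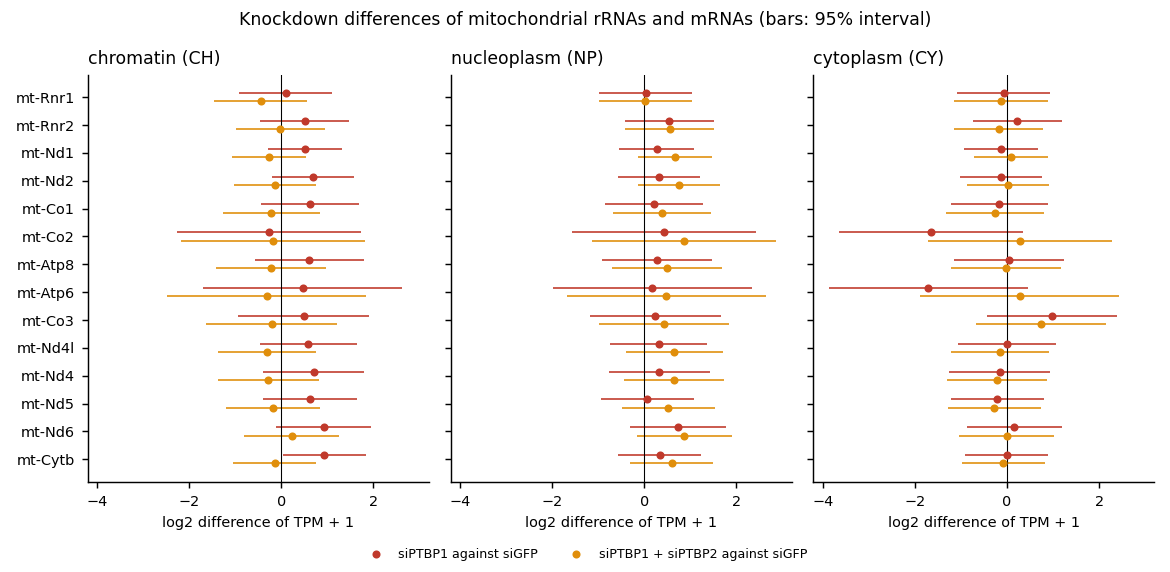
log2 difference of TPM + 1 from siGFP (points) with 95% interval (bars) for 2 rRNAs and 12 mRNAs in chromatin, nucleoplasm and cytoplasm, with siPTBP1 above the double knockdown in each row. In NP every point is positive, and the bars of mt-Co2 and mt-Atp6, which both have a nuclear copy identical over its matched length, are the widest of the 12 mRNAs.

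The smallest adjusted p-values among members in these contrasts were those of mt-Tl1 in CH and mt-Tk in NP, both tRNAs. mt-Tk (lysine, chrM:7700-7764, plus strand) had 13.2, 8.26 and 48.6 TPM in siPTBP1, 47.3, 38.01 and 27.9 TPM in the double knockdown, and 4.89, 4.15 and 30.6 TPM in siGFP in NP, and was listed at 0 in every CH and CY library. The double knockdown and siGFP overlapped through siGFP replicate 3. The log2 difference was 1.94 (95% interval 0.90 to 2.99, adjusted p = 0.192). It was called with the replicate block (adjusted p = 0.0498) and without siGFP NP replicate 3, where the difference was 2.78 (adjusted p = 0.00326). The fit estimates a gene's spread once over all 9 groups, and the CH and CY groups, all at 0, add none. The interval and p-values of mt-Tk therefore understate its spread in NP. Over all alternatives the adjusted p ran between 0.00326 and 0.830. mt-Tl1 in CH had 36.3, 7.76 and 7.34 TPM in siPTBP1, 9.40, 15.02 and 0 TPM in the double knockdown, and 0, 6.91 and 0 TPM in siGFP. All 3 siPTBP1 libraries lay above all 3 siGFP libraries, and the share of all genes that separate in this way was not counted. The difference was 2.81 (limma, adjusted p = 0.183) and was not called, where 0.398% of all genes were. It was called without siGFP CH replicate 2, the one siGFP library above 0 (adjusted p = 0.0270). Over all alternatives its adjusted p ran between 0.0270 and 1. Across NP, 5 tRNAs in siPTBP1 and 3 in the double knockdown had an unadjusted p under 0.05. The share of all genes under that threshold is not given, and the many tRNA values at 0 in CH and CY lower the shared spread. These counts are a description only.

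Whether a knockdown's effect differed between fractions was tested as an interaction, with 6 contrasts. None of the 13 mRNAs, 2 rRNAs or 17 tRNAs was called in any. For siPTBP1 0.0582% of all genes were called in CH against NP, 0.0437% in CH against CY and 0.00485% in NP against CY. For the double knockdown the shares were 0.034%, 0.0582% and 0.00485%. With the replicate block they were 0.16%, 0.194% and 0.00485% for siPTBP1 and 0.16%, 0.383% and 0.00485% for the double knockdown, and still no member was called.

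Of 36 nuclear genes for mitochondrial transcription and RNA processing, 1 was called higher and 0 lower in NP than CY in siGFP, where 12.3% and 0.461% of all genes were. With the replicate block 9 were called higher and 1 lower, where 23.5% and 4.74% of all genes were. The gene called without the block was Polrmt, the mitochondrial RNA polymerase, at 41.0 ± 5.27 TPM in NP and 13.5 ± 3.74 TPM in CY (SD, n = 3 each; log2 difference 1.56, adjusted p = 0.000247). In CH against CY 17 of 36 were higher and 3 lower, where 57.9% and 8.08% of all genes were. The smallest adjusted p-values were those of Polrmt at 2.90 and Polg, the catalytic subunit of the mitochondrial DNA polymerase, at 2.29. The list's median was 0.03 in NP against CY and 0.82 in CH against CY, beside 0.15 and 0.95 over all genes.

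The nuclear-encoded subunits of the same 4 complexes, 73 genes, were mostly lower on chromatin than in cytoplasm. In siGFP 3 were higher and 50 lower in CH than CY, with a median of -1.11, where 57.9% of all genes were called higher and 8.08% lower, and 5 were higher and 60 lower with the block. Atp5k of ATP synthase was 80.3 ± 18.7 TPM in CH and 446 ± 31.3 TPM in CY (SD, n = 3 each; log2 difference -2.48, adjusted p = 5.27e-09). In NP against CY 8 were higher and 2 lower, with a median of 0.05, where 12.3% of all genes were called higher and 0.461% lower. With the replicate block 12 were higher and 11 lower, where 23.5% and 4.74% of all genes were, so the balance of directions depends on the block. Cox6a1, a subunit of complex IV, was the furthest, at 662 ± 49.0 TPM in NP and 95.6 ± 20.7 TPM in CY (SD, n = 3 each; log2 difference 2.80, adjusted p = 1.19e-05).

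Neither nuclear list had a gene called in a knockdown contrast. The nearest was Ndufc1 of complex I, with a log2 difference of -0.97 between the double knockdown and siPTBP1 in CH (adjusted p = 0.196). With the replicate block, Polg2, an accessory subunit of the mitochondrial DNA polymerase, was called higher in CY in both knockdowns. It had 16.5 ± 1.53 TPM in siPTBP1 and 16.4 ± 4.30 TPM in the double knockdown, against 9.84 ± 1.95 TPM in siGFP (SD, n = 3 each), with adjusted p of 0.0155 and 0.0176 under the block and 0.722 and 0.747 without it. Ndufb4 of complex I was called lower in CH in the double knockdown under the block, at 8.63 ± 1.75 TPM against 13.9 ± 1.79 TPM in siGFP (SD, n = 3 each; log2 difference -0.64, adjusted p = 0.0383 with the block and 0.215 without).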

How the data were processed

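Polyadenylated RNA was prepared with a stranded TruSeq mRNA kit, per the labels. The authors deposited 1 table of TPM per gene and library. STAR, kallisto and the mm10 genome are named per the submitters' processing notes, and which tool made the TPM, the annotation and the strand setting are not given in the sources used here. TPM keeps no depth, so no counting interval is given. Groups followed the labels. The 20611 genes with at least 1 TPM in at least 3 of 27 libraries were fitted as log2(TPM + 1) with limma 3.58.1 (R 4.3.3), 1 mean per group, with trended and robust variance. This understates changes of low genes. P-values were Benjamini-Hochberg adjusted over all 20611 genes in each contrast and called under 0.05. They measure the spread between these samples. Ratios were tested by exact permutation in Python 3.11.15. Nuclear copies were found with BLAST 2.17.0 and, where added to a mitochondrial gene, weighted by length, and sequences come from GENCODE M21 transcripts (GRCm38). Replicate numbers paired samples: over 108 same-number pairs the lowest correlation of deviations was 0.13 and the median 0.37. This pairing comes from the data, and the labels do not state it. The fit was also run on simulated data, drawn without a shared replicate effect, so that run does not bear on the pairing. Named were all mitochondrial mRNAs and rRNAs, the highest tRNAs and the first of each nuclear list. Members and lists were chosen with earlier results of these data known, and mt-Tk, mt-Th and mt-Ts2 were singled out after their values were seen.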

Additional observations from a re-analysis of the deposited data

How the results depend on the processing

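The count of mRNAs called stayed at 0 in every knockdown contrast under every alternative run, among them the pseudocount, filters, scalings, replicate block, copies and each library left out. In fraction contrasts it was 13 or 12 for NP against CY, 13 or 12 for CH against NP, and between 10 and 13 for CH against CY. Every mRNA lost in any of them was mt-Nd3, mt-Co2 or mt-Atp6. These have nuclear copies, but so do mt-Co1 and mt-Co3, which lost no call. Under some setting 196 named member results were called, 184 of them as reported. Of 3332 alternative values of the 196, 3230 stayed as reported, called or not called. A call was lost in 75 (16 mRNA, 6 rRNA and 53 tRNA values) and gained in 27, and 0 turned sign with a call on either side. Another 356 named results were never called, and 505 of their 6880 alternative values turned sign. Adding nuclear copies to their mitochondrial genes and comparing mRNA shares by replicate number were chosen after seeing the data. Causes below were not tested. Under median-ratio scaling the summed mRNA share on the log2 scale was 3.26 in siPTBP1 (4.26 as reported), 2.20 in the double knockdown (3.38) and 2.59 in siGFP (3.67) for CH against CY, and -4.48 (-3.63) and -5.51 (-4.67) in siPTBP1 and the double knockdown for CH against NP. Taking replicate numbers as pairs, the mt-Rnr2 to mt-Rnr1 ratio passed at 0.42 for CH against CY and 0.31 for CH against NP, and mt-Nd4l to mt-Nd4 passed at -0.23 for CH against CY, with or without copies added. With a pseudocount of 1, mt-Nd6 to mt-Nd5 was -0.22 for NP against CY. For CH against CY it was 0.53, and the call was lost (exact adjusted p = 0.06). At that pseudocount mt-Atp8 to mt-Atp6 was 0.094 for NP against CY. With copies added, paired or not, the last was 0.32, and 0.10 for CH against CY. Leaving out replicates gave mt-Rnr2 to mt-Rnr1 0.28 to 0.61 for CH against CY. It gave mt-Nd6 to mt-Nd5 -0.12 to 0.60 (NP against CY), 0.71 to 1.07 (CH against CY) and 0.47 to 0.95 (CH against NP). For mt-Atp8 to mt-Atp6 it gave -0.88 to 1.00, -1.42 to 0.44 and -0.56 to -0.40 in that order, and for mt-Nd4l to mt-Nd4 -0.18 to -0.16 for CH against NP. The calls of the last ratio and of mt-Atp8 to mt-Atp6 for CH against NP were lost without replicate 1 and without replicate 3. The replicate block raised the genes called in siPTBP1 against siGFP to 505 in CH, 388 in NP and 377 in CY, against 82, 33 and 47 as reported, and in the double knockdown to 436, 379 and 547, against 88, 32 and 50. For NP against CY it gave 7357, 7878 and 5830 genes, against 3605, 4125 and 2638 as reported, in siPTBP1, the double knockdown and siGFP. Fits of only the compared groups called between 0 and 24 genes in knockdown contrasts with siGFP. Read depth is unknown, so whether a tRNA at 0 was within reach cannot be told.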
